A study of Mus musculus with 8 samples.

Results

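The interferon-stimulated genes described here are 49 mouse genes whose transcription is known to rise when cells meet an interferon, and they were taken by gene symbol from the table of retinal astrocytes (AC). The table holds 13575 genes, and 48 of the 49 were among them. Ifitm1 was not analysed here. They were chosen by name and not by a threshold on measured values, though with earlier results of these data known. RNA was sequenced from cultured retinal AC of 4-week-old mice, as 4 Cyp1b1+/+ (wild-type) libraries and 4 libraries labelled Cyp1b1-/-, in which the cytochrome P450 gene Cyp1b1 is meant to be inactive in every cell. The study describes the cells as coming from the pooled retinas of mixed-gender mice of a litter, and CD31 beads removed endothelial cells. Both genotypes were grown in a medium that held recombinant mouse interferon-γ, so the comparison is between 2 cultures that both received this interferon, and no culture without it was measured. The origin of the 4 replicates per genotype is not given in the sources used here, so the p-values measure the spread between these libraries, which may be technical.

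Interferons are secreted proteins that warn cells of infection. Type I interferons bind IFNAR1 and IFNAR2 and act mainly through a complex that holds STAT2 and IRF9 and binds the interferon-stimulated response element (ISRE) in promoters. Interferon-γ binds IFNGR1 and IFNGR2 and acts mainly through the gamma-activated site (GAS). The genes induced in this way sense foreign nucleic acid, block viral entry, translation or replication, attack the vacuoles of intracellular parasites, or feed back on the signal. In the retina, glial cells show such a response during inflammation and infection.

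The genotype labels, the cell type and the libraries were checked before the results. The normalized value of a gene is its read count scaled to a common library size and rounded, and the library totals were 19261729 to 20134745 on this scale. Cyp1b1 itself was higher in the libraries labelled Cyp1b1-/- (1307 ± 41.5, SD, n = 4) than in the Cyp1b1+/+ libraries (829 ± 57.6). This value is per gene and does not show which exons were read. It therefore cannot tell whether a working transcript is made, and the label could not be checked by it. The groups are called by their labels throughout. Of 12 astrocyte markers 7 were measured. Gfap, S100b, Aldh1l1, Aqp4 and Pdgfra were not found by symbol among the 13575 genes. The authors had dropped genes of low abundance, and whether these markers were among those was not tested. They give no backing to the label of the cell type. Vim and Nes were high, Slc1a3 was low and Pax2 was at 0 to 1 in the libraries labelled Cyp1b1-/- against 28 to 39 in the others. By the call at an adjusted p under 0.05 in limma, 2 of the 7 were higher (Vim, log2 fold change 0.46, and Gja1, 0.95), 2 were lower (Pax2, and Nes, -0.23) and 3 did not pass. Their sum, most of which is Vim, was 92569 to 99952 for Cyp1b1+/+ and 116072, 121241, 121418 and 146110 for the label Cyp1b1-/-, where the highest is replicate 2. Its Gja1 value was 3124, against 1180 to 1232 in the other 3. Without this library the numbers of interferon-stimulated genes called higher and lower, given below, were the same. Of 17 microglia and macrophage markers 3 were measured, with a summed normalized value of 102 to 130 for Cyp1b1+/+ and of 92 to 101 for the label Cyp1b1-/-, and of 9 markers of T, B and NK cells 0 were measured. Of the 3 microglia and macrophage markers Csf1r (-1.57) and Cd68 (-0.50) were lower and Cd14 (0.68) was higher. The summed value of 3 endothelial markers of 10 was 311 to 367 and 277 to 304. Of 9 pericyte and smooth muscle markers 3 were measured, with sums of 22219 to 26736 and 24448 to 36098, and of these Pdgfrb was lower (818 ± 69.5 and 436 ± 203), Cnn1 was higher (log2 fold change 1.25) and Acta2 did not pass. Acta2 was at 22691 ± 2128 and 27162 ± 5250, above Nes at 17662 ± 572 and 15121 ± 850. Of 10 neuron and photoreceptor markers 2 were measured, neither of which passed, with sums of 951 to 1011 and 1094 to 2213. The highest sum of both lists was again that of the library labelled Cyp1b1-/- replicate 2. The part of these markers in the results below was not tested. The 4 measured Y-linked genes summed to 0 to 2 in the Cyp1b1+/+ group and 3636 to 3821 in the other group. Sex and genotype label therefore cannot be told apart. The sums of the Cyp1b1+/+ group do not go with the mixed-gender pool that the study describes. In bulk RNA, fewer cells of a type and less RNA per cell cannot be told apart either.

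Of the 48 measured interferon-stimulated genes, 41 differed between the genotype labels at an adjusted p under 0.05 in limma (53.7% of all genes did), 12 of them higher and 29 lower where the label is Cyp1b1-/-, and 7 did not pass the test. Across all genes tested, 26.8% were higher and 26.9% were lower by the same call, so the genes that moved down among the interferon-stimulated genes outnumbered those that moved up, while about equal numbers did so in the whole table. The median log2 fold change was -0.23 over the 48 genes and -0.00 over all genes. A change over 1.5-fold was reached by 1 gene upwards (7.09% of all genes) and by 9 downwards (8.29% of all genes). Past 2-fold there were 0 upwards (2.6% of all genes) and 5 downwards (4.52% of all genes), namely Epsti1, Trim30a, Mx2, Mx1 and Rsad2. In 11 genes the 4 libraries labelled Cyp1b1-/- all lay above the other 4 (24.8% of all genes), and in 28 they all lay below (24.4% of all genes). Most of the changes were therefore small and went down, with a few large decreases.

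**Figure D1:**
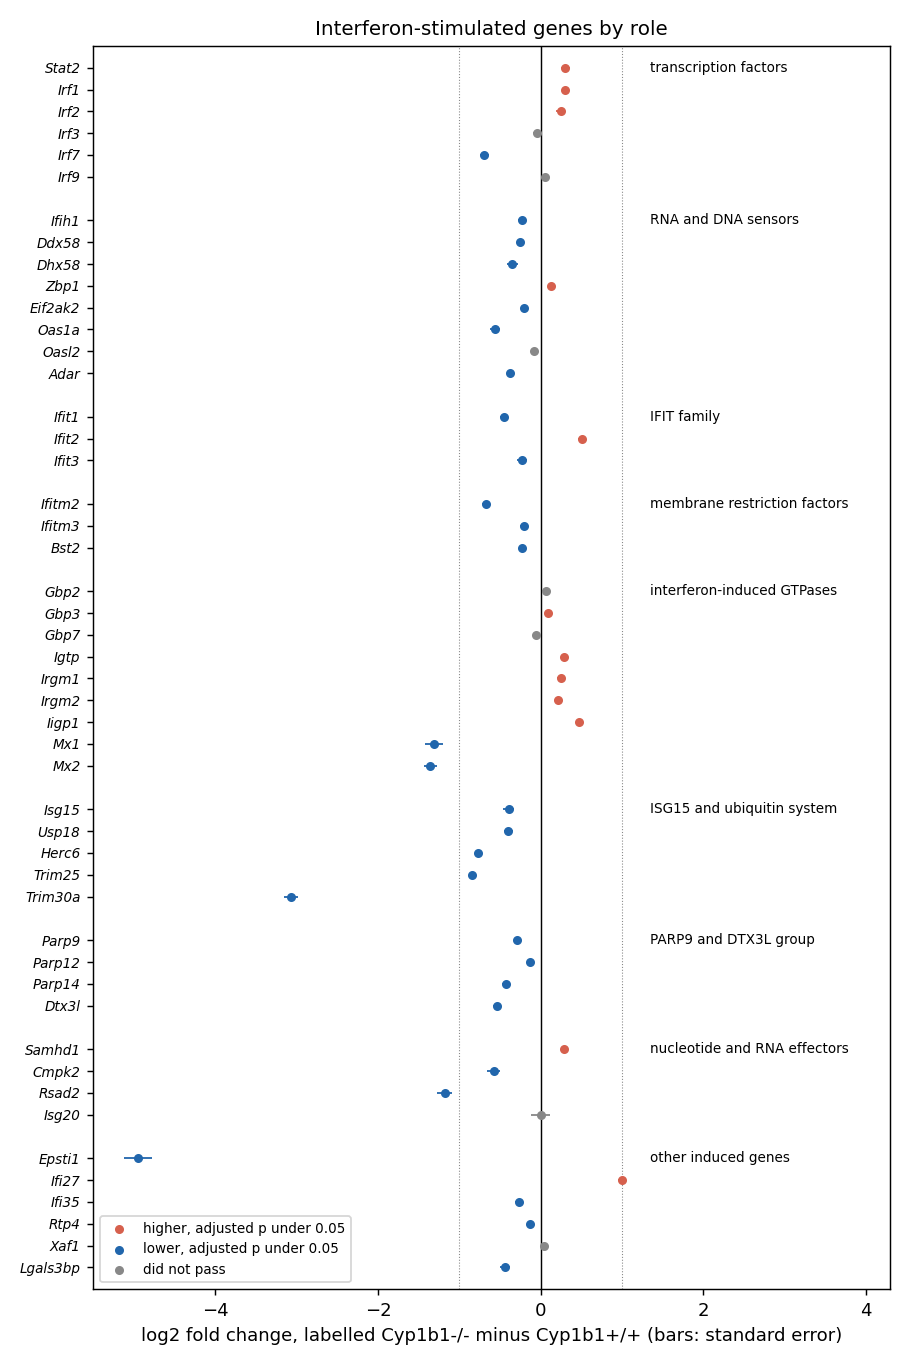
The plot gives the log2 fold change of each of the 48 measured interferon-stimulated genes on the x axis (libraries labelled Cyp1b1-/- minus Cyp1b1+/+, bars are the standard error, dotted lines mark 2-fold), ordered by role on the y axis and coloured by the call at an adjusted p under 0.05. Most points lie between -1 and 1, with Epsti1 at -4.94 and Trim30a at -3.07 far to the left and Ifi27 at 1.00 to the right.

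RefSeq promoter windows were at hand for 38 of the measured genes and span 250 bases before to 50 bases after the transcription start. The ISRE was searched as GAAA, any 2 bases and GAAA, and the GAS as TTC, any 3 bases and GAA, on both strands, and matches of the motifs may overlap by a few bases. The ISRE letters were in the windows of 20 of the 38 genes (52.6%), against 3.85% of the 9719 genes of the table that have a window and 3.99% of all 27025 genes with a window. The GAS letters were in 14 of the 38 (36.8%), against 8.16% and 9.55%. Among genes that were higher, 6 of 9 held the ISRE and 6 of 9 the GAS, and among those that were lower, 12 of 22 held the ISRE and 6 of 22 the GAS. Of the 7 genes that did not pass, 2 held the ISRE and 2 the GAS. A match describes the letters of a window and does not show that a factor binds there.

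The following stretches of 60 bases upstream of the start are a selection, shown to set side by side promoters of both directions. The first 5 are of genes that were lower, and the last 4 of genes that were higher, in the libraries labelled Cyp1b1-/-. Each is read 5′ to 3′ on the strand of the gene, with the GRCm38.p6 position in its name and every ISRE or GAS match in capitals, where an ISRE on the opposite strand reads TTTC, any 2 bases and TTTC, and overlapping matches run together.
Isg15, ISRE, chr4:156200850-156200909, minus strand: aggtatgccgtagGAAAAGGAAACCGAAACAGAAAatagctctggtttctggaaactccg
Ifit1, ISRE, chr19:34640779-34640838, plus strand: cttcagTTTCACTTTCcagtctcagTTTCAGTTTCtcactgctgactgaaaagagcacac
Oas1a, ISRE, chr5:120907526-120907585, minus strand: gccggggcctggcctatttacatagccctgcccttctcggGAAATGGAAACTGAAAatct
Rsad2, ISRE, chr12:26456538-26456597, minus strand: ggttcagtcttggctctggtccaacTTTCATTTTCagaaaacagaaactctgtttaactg
Trim30a, ISRE, chr7:104465195-104465254, minus strand: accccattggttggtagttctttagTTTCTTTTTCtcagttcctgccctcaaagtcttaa
Irf1, GAS, chr11:53769898-53769957, plus strand: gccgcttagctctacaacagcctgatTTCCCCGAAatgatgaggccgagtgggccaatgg
Igtp, GAS and ISRE, chr11:58199485-58199544, plus strand: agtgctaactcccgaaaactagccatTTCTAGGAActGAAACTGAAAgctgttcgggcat
Irgm2, GAS and ISRE, chr11:58214876-58214935, plus strand: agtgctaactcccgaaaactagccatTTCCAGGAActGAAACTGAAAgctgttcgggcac
Irgm1, ISRE, chr11:48871421-48871480, minus strand: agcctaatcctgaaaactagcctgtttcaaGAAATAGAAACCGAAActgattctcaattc
The Igtp and Irgm2 stretches were identical at 58 of 60 bases. In the stretches printed, GAS matches appear only in genes that were higher. The stretches are a selection, so no split of the motifs by direction is read from them. GAS letters also lay upstream of the start in Bst2, Eif2ak2 and Oas1a, which were lower. In Oas1a they lay at -98 to -90, outside the stretch printed. Stat2 and Gbp3, which were higher and are not printed, held the ISRE without the GAS.

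Among the 6 transcription factors, 3 were higher, 1 was lower and 2 did not pass. Irf7, the factor that amplifies type I interferon production, had normalized values of 2390, 2542, 2231 and 2268 in Cyp1b1+/+ replicates 1 to 4 and of 1530, 1325, 1465 and 1521 in those labelled Cyp1b1-/-. The groups did not overlap, and Irf7 fell from 2358 ± 140 to 1460 ± 94.6, a log2 fold change of -0.69 (standard error, SE, 0.06, with limma giving an adjusted p = 3.63e-06). Irf1, a factor that is itself induced by interferon-γ and whose GAS letters are printed above, went the other way, with 4843, 4656, 4866 and 4841 against 5970, 5711, 6066 and 5851. Its log2 fold change was 0.30 (SE 0.03, adjusted p = 1.99e-05), and all libraries labelled Cyp1b1-/- lay above the others. Stat2, which partners IRF9 at the ISRE, had 6813, 7821, 7881 and 7978 against 9350, 8974, 9677 and 9619, a log2 fold change of 0.31 (SE 0.05, adjusted p = 0.000646). Stat2 lies on chromosome 10, where the median gene was higher by 0.47 on the log2 scale, and relative to its chromosome its log2 fold change was -0.15 (adjusted p = 0.0273 in limma). Irf2, which competes with IRF1 for its sites, rose by 0.25 on the log2 scale from 471 ± 29.2 to 558 ± 15.6 (adjusted p = 0.00263). Irf9 (log2 fold change 0.06) and Irf3, the factor activated by the RNA sensors (-0.04), did not pass.

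The 8 sensors and effectors of foreign nucleic acid included 6 that were lower, 1 that was higher and 1 that did not pass. Adar, which edits adenosine to inosine in double-stranded RNA, had 4316, 4323, 4277 and 4241 in the Cyp1b1+/+ libraries and 3240, 3232, 3374 and 3321 in the other group. The replicates lay close together and the groups far apart, for a log2 fold change of -0.38 (SE 0.03, adjusted p = 1.58e-06 in limma). However, 1365 exon bases of Adar overlap Chrnb2 on the other strand. Whether the libraries mark strand is not stated in the sources used here. Oas1a, an oligoadenylate synthetase that activates RNase L, had 938, 947, 864 and 875 against 618, 563, 601 and 680, with no overlap and a log2 fold change of -0.56 (SE 0.06, adjusted p = 2.66e-05). Of its 100-base exon words, 40.9% also occur in Oas1g, so reads could be split between these genes. Ddx58, which encodes the RNA sensor RIG-I, had 3655, 3646, 3509 and 3564 against 3103, 2794, 2968 and 3263 (log2 fold change -0.25, SE 0.05, adjusted p = 0.00106). The related helicases Ifih1 (MDA5, -0.23) and Dhx58 (LGP2, -0.35) and the RNA-activated kinase Eif2ak2 (PKR, -0.20) were lower too, with adjusted p of 0.00132 to 0.00193 in limma. Zbp1, a sensor of Z-form nucleic acid, was the member of this group that rose, from 4279 ± 46.6 to 4683 ± 160 (log2 fold change 0.13, adjusted p = 0.00579). Oasl2 was at 7814 ± 297 and 7402 ± 280 and did not pass (adjusted p = 0.117), but it did without Cyp1b1+/+ replicate 1 (adjusted p = 0.0419).

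The IFIT proteins bind RNA and restrain the translation of viral messages, and their 3 genes did not move together. Ifit1, which recognises RNA caps that lack methylation, had 3073, 2920, 2682 and 2813 in the Cyp1b1+/+ libraries and 2187, 2035, 2019 and 2153 in the libraries labelled Cyp1b1-/-, with no overlap (log2 fold change -0.45, SE 0.05, adjusted p = 1.94e-05). Ifit2, its relative on chromosome 19, had 1223, 1156, 1158 and 1099 against 1687, 1533, 1664 and 1729, a log2 fold change of 0.51 (SE 0.05, adjusted p = 8.38e-06). Here too the groups did not overlap, in the opposite direction. Ifit3 had 5183, 5020, 4496 and 4994 against 4296, 3960, 3905 and 4650 (log2 fold change -0.23, SE 0.06, adjusted p = 0.00984), and its groups overlapped. Ifit3 shares 31.7% of its 100-base exon words with Ifit3b, which was lower as well (log2 fold change -0.40). The median gene of chromosome 19 was higher by 0.29, and relative to it Ifit2 was at 0.24 and Ifit1 at -0.73 on the log2 scale.

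All 3 measured membrane restriction factors were lower. Ifitm2, which hinders the fusion of viruses in endosomes, had 1434, 1300, 1258 and 1283 against 875, 809, 798 and 840, with no overlap and a log2 fold change of -0.67 (SE 0.05, adjusted p = 1.95e-06). Other genes, Gm45717 among them, share 34.9% of its 100-base exon words. Ifitm3, its close relative, had 8967, 9146, 8404 and 8380 against 7899, 7063, 7421 and 7795 (log2 fold change -0.21, SE 0.05, adjusted p = 0.00289), a change that did not pass relative to chromosome 7, where the median gene was at -0.13 (log2 fold change -0.07, adjusted p = 0.256 in limma). Bst2, the tetherin that holds budding virions at the cell surface, had 7152, 8204, 7509 and 7667 against 6944, 6354, 6454 and 6361 (log2 fold change -0.22, SE 0.05, adjusted p = 0.00227), and the groups of Ifitm3 and Bst2 did not overlap.

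The 9 interferon-induced GTPases split by family. The Mx proteins, dynamin-like GTPases that trap viral particles, had the lowest levels per kb of this group and both fell. Mx1 (chromosome 16, 97447035 to 97462907, minus strand) had 150, 150, 121 and 142 in the Cyp1b1+/+ libraries and 49, 61, 55 and 60 in those labelled Cyp1b1-/-. Mx2 (chromosome 16, 97535308 to 97560900, plus strand) had 409, 434, 416 and 458 against 172, 149, 161 and 188. It is annotated as a polymorphic pseudogene, and whether either gene makes a working protein in these cells was not tested. Neither gene overlapped between the groups, and the decreases were 2.48-fold for Mx1 (log2 fold change -1.31, SE 0.11, adjusted p = 5.73e-06 in limma) and 2.56-fold for Mx2 (-1.36, SE 0.08, adjusted p = 3.68e-07).

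The immunity-related GTPases (IRG), which coat and break open the vacuoles of parasites such as Toxoplasma, were higher for all 4 members. Iigp1, an effector of this family, had 40083, 37171, 37964 and 37132 against 52779, 50564, 53984 and 54305. Its groups did not overlap, and the log2 fold change was 0.47 (SE 0.04, adjusted p = 8.58e-06). The 3 regulators of the family rose less, with log2 fold changes of 0.29 for Igtp (14800 ± 266 to 18056 ± 894), 0.25 for Irgm1 (27159 ± 1214 to 32269 ± 954) and 0.22 for Irgm2 (7337 ± 295 to 8544 ± 307), each with an adjusted p of 0.000181 to 0.000868 in limma. Igtp and Irgm2 share exon sequence, which reaches 5.16% of the 100-base words of Igtp.

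The guanylate-binding proteins (GBP) act on the same vacuoles and on cytosolic bacteria. Gbp2 was at 28823 ± 1531 and 30153 ± 1025 and did not pass (log2 fold change 0.07), nor did Gbp7 (-0.06). Gbp3 passed by a small margin, at 8020 ± 277 and 8558 ± 241 (log2 fold change 0.09, adjusted p = 0.0450), with overlapping groups. Its call was lost without Cyp1b1+/+ replicate 2 (adjusted p = 0.0520), 3 (0.129) or 4 (0.114) and without the library labelled Cyp1b1-/- replicate 1 (0.0901), 3 (0.0829) or 4 (0.124). These 3 genes lie on chromosome 3, where the median gene was at -0.16, and relative to it Gbp2 was at 0.23 (adjusted p = 0.00118), Gbp3 at 0.26 (adjusted p = 0.000124) and Gbp7 at 0.11 (adjusted p = 0.0203), all higher in limma. Gbp7 shares 10.0% of its 100-base exon words with other genes, Gbp3 among them.

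**Figure D2:**
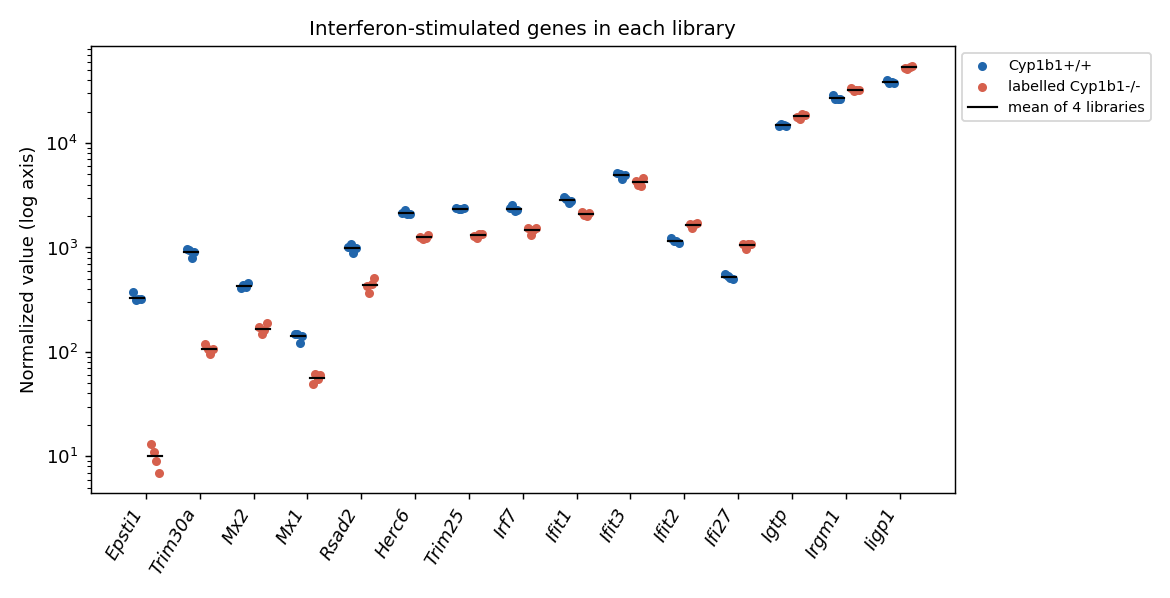
The plot gives the normalized value (y axis, log scale) of 15 interferon-stimulated genes in each of the 4 Cyp1b1+/+ libraries (blue) and 4 libraries labelled Cyp1b1-/- (red), with the mean of each group as a line. The groups are clearly apart for Epsti1 (312 to 374 against 7 to 13) and Trim30a (786 to 974 against 96 to 118), Ifit3 is the gene shown whose groups overlap, and Ifit2, Ifi27, Igtp, Irgm1 and Iigp1 are higher in red.

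ISG15 is a ubiquitin-like protein that is attached to other proteins after interferon, and all 5 genes of this system and of the TRIM ubiquitin ligases were lower. Trim30a (ENSMUSG00000030921, chromosome 7, 104409025 to 104465193, minus strand), a TRIM protein known in mice to restrain NF-κB signalling, had 974, 943, 786 and 899 in the Cyp1b1+/+ libraries and 118, 106, 96 and 106 in those labelled Cyp1b1-/-. This was a decrease of 8.38-fold (log2 fold change -3.07, SE 0.08, adjusted p = 1.97e-09 in limma), with a wide gap between the groups. Trim25, the ubiquitin ligase that acts on RIG-I, had 2375, 2315, 2328 and 2409 against 1295, 1238, 1359 and 1360 (log2 fold change -0.84, SE 0.04, adjusted p = 6.81e-08). Herc6, the main ligase for ISG15 in mice, had 2138, 2274, 2079 and 2073 against 1269, 1206, 1223 and 1322 (-0.77, SE 0.04, adjusted p = 2.72e-07). Neither gene overlapped between the groups, and 10.3% of the 100-base exon words of Herc6 also occur in Gm45193. Isg15 itself fell from 3254 ± 218 to 2482 ± 206 (-0.39, adjusted p = 0.000538) and Usp18, the protease that removes ISG15, from 1492 ± 84.3 to 1134 ± 75.5 (-0.40, adjusted p = 0.000192).

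The 4 genes of the PARP9 and DTX3L group, whose products add ADP-ribose or ubiquitin to proteins in the interferon response, were all lower. Dtx3l, the ubiquitin ligase that pairs with PARP9, had 3507, 3417, 3213 and 3305 against 2337, 2135, 2311 and 2491 (log2 fold change -0.54, SE 0.05, adjusted p = 7.49e-06 in limma). Parp14 had 10307, 10524, 10705 and 10859 against 7845, 7243, 8032 and 8485 (-0.43, SE 0.05, adjusted p = 2.92e-05). Parp9 had 5563, 5300, 5289 and 5350 against 4452, 4121, 4347 and 4749 (-0.28, SE 0.04, adjusted p = 0.000285). None of these 3 genes overlapped between the groups, and they lie together on chromosome 16, where the median gene was at -0.17 and relative to which Parp9 did not pass (log2 fold change -0.10, adjusted p = 0.0539). The exons of Parp9 and Dtx3l overlap by 458 bases on opposite strands. Parp12, on chromosome 6, fell by 0.13 on the log2 scale from 5724 ± 168 to 5224 ± 225 (adjusted p = 0.0135).

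Of 4 enzymes that act on nucleotides and RNA, 2 were lower, 1 was higher and 1 did not pass. Rsad2 (chromosome 12, 26442746 to 26456452, minus strand) encodes viperin, which makes a chain-terminating nucleotide. It had 1000, 1081, 877 and 982 in the Cyp1b1+/+ libraries and 427, 365, 444 and 507 in the libraries labelled Cyp1b1-/-, a decrease of 2.27-fold without overlap (log2 fold change -1.18, SE 0.10, adjusted p = 3.62e-06). Cmpk2, a mitochondrial nucleotide kinase encoded beside Rsad2, had 599, 627, 503 and 596 against 396, 370, 364 and 424 (log2 fold change -0.58, SE 0.08, adjusted p = 0.000115). Both fell although the median gene of chromosome 12 was at 0.19. Samhd1, which breaks down deoxynucleotides, rose with 10132, 9746, 9512 and 9751 against 12406, 11239, 11892 and 12200 (0.29, SE 0.04, adjusted p = 0.000125). Isg20, an RNA exonuclease, was at 93.0 ± 11.5 and 92.5 ± 5.97 and did not pass (adjusted p = 0.994).

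The 6 other induced genes held the largest change of the 48 in either direction. Epsti1 (ENSMUSG00000022014, chromosome 14, 77904239 to 78002657, plus strand), first described in epithelial cells in contact with stroma, had 374, 312, 320 and 319 in the Cyp1b1+/+ libraries and 13, 11, 9 and 7 in those labelled Cyp1b1-/-. It fell 30.8-fold on the log2(value + 1) scale (log2 fold change -4.94, SE 0.17, adjusted p = 1.3e-08), from 331 ± 28.7 to 10.0 ± 2.58, and the groups lay far apart. Ifi27 (chromosome 12, 103434211 to 103440239, plus strand), a small mitochondrial membrane protein, had 552, 534, 507 and 500 against 1070, 964, 1081 and 1073, a rise of just under 2-fold (log2 fold change 1.00, SE 0.05, adjusted p = 1.63e-07). Relative to its chromosome its log2 fold change was 0.82. Lgals3bp, a secreted galectin-binding glycoprotein, had 7515, 9158, 8793 and 8617 against 6189, 5809, 6673 and 6435 (-0.44, SE 0.06, adjusted p = 0.000211), with no overlap. Ifi35 fell by 0.26 on the log2 scale, and Rtp4, a chaperone of membrane receptors, fell by 0.13 from 1889 ± 85.3 to 1731 ± 41.9 (adjusted p = 0.0183 in limma). Relative to chromosome 16 Rtp4 was at 0.06 and did not pass (adjusted p = 0.211). Its call was also lost without the library labelled Cyp1b1-/- replicate 3 (adjusted p = 0.0521), and 9.28% of its 100-base exon words also occur in Gm45338. Xaf1 did not pass (log2 fold change 0.04).

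Levels were compared between genes as normalized value per kb of exon. Of the 48 genes, 45 lay above the median of all genes and 24 above their 90th percentile in Cyp1b1+/+ libraries. The highest mean levels per kb in Cyp1b1+/+ libraries were those of Ifitm3 (12868), Gbp2 (11456), Bst2 (8453), Igtp (7319) and Iigp1 (6541), and the lowest were those of Mx1 (37.2), Isg20, Irf2 (63.6) and Mx2 (119). Most of the set was thus well above the usual level of a gene in these cultures. The other genes that fell past 2-fold were at 143 (Epsti1), 219 (Trim30a) and 227 (Rsad2) per kb. The 48 genes together took 1.34 to 1.41% of the total value in the Cyp1b1+/+ group and 1.31 to 1.45% in the other group, ranges that overlap. Without Iigp1, Gbp2 and Irgm1, chosen after their values were seen, the share was 0.867 to 0.903% and 0.758 to 0.852%, and these ranges do not overlap. The 3 genes left out have the largest normalized values of the 48. Their log2 fold changes were all above 0 (0.47, 0.07 and 0.25). Leaving them out thus lowers the share more where the label is Cyp1b1-/-, and nothing is concluded from the gap.

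The genes that carry the signal were read from lists of the pathway. None of the 14 listed interferon genes was found by symbol among the 13575 genes. Of 10 measured receptors and kinases, 6 were lower (26.9% of all genes), 2 were higher (26.8% of all genes) and 2 did not pass. Ifnar1 had 1360, 1402, 1454 and 1373 against 1087, 1042, 1060 and 1087 (log2 fold change -0.39, SE 0.03, adjusted p = 7.05e-06 in limma), and Ifnar2 had 755, 833, 819 and 848 against 523, 485, 589 and 542 (-0.61, SE 0.06, adjusted p = 2.02e-05). Both chains of the type I receptor were thus lower, without overlap. Ifngr2, the signalling chain of the interferon-γ receptor, had 425, 415, 426 and 417 against 280, 236, 283 and 274 (-0.65, SE 0.06, adjusted p = 1.47e-05). Il10rb, shared by the receptors of interferon-λ and interleukin-10, fell by 0.87 on the log2 scale. These 4 genes are neighbours on chromosome 16 and remained lower relative to its median, at -0.68 to -0.20 on the log2 scale.

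Ifngr1, the ligand-binding chain for interferon-γ, had 601, 695, 674 and 681 against 793, 766, 842 and 839 (log2 fold change 0.29, SE 0.05, adjusted p = 0.00124 in limma). It lies on chromosome 10 like Stat2, and relative to that chromosome it was lower (-0.17, adjusted p = 0.0249). Jak2, the kinase of IFNGR2, rose by 0.26 but was at -0.01 relative to chromosome 19. Jak1 (-0.18) was lower and Tyk2 (0.08) did not pass. Stat3 (-0.08) passed by a small margin (adjusted p = 0.0419 in limma). Its call was lost with the replicate block (0.0700), without Cyp1b1+/+ replicate 2 (0.0878), 3 (0.0652) or 4 (0.117) and without the library labelled Cyp1b1-/- replicate 1 (0.0713), 3 (0.0791) or 4 (0.119).

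Of 12 negative regulators of the pathway 5 were higher (26.8% of all genes), 0 were lower (26.9% of all genes) and 7 did not pass in limma. Relative to the chromosome medians 4 were higher and 1 was lower (24.6% and 24.5% of all genes). Nlrx1, a mitochondrial protein of the NOD-like receptor family, rose from 106 ± 8.81 to 186 ± 9.98 (log2 fold change 0.81, adjusted p = 2.39e-05), Pias4 by 0.39, Pias1 by 0.24 and Nlrc5, better known as an activator of MHC class I genes, by 0.17. Pias4 lies on chromosome 10 and was at -0.07 relative to it. A further list of sensor adaptors and kinases also holds sensors such as Tlr3 and Tlr4 and the transcription factors Irf5 and Irf8. Of its 14 measured genes 5 were higher (26.8% of all genes), 4 were lower (26.9% of all genes) and 5 did not pass. Tlr4, the lipopolysaccharide receptor, had 89, 77, 87 and 87 against 192, 223, 202 and 218 (log2 fold change 1.29, SE 0.08, adjusted p = 9.13e-07). The kinase gene Tbk1, on chromosome 10, rose by 0.49 (0.04 relative to its chromosome, adjusted p = 0.444), Traf3 rose by 0.39, and the adaptor gene Myd88 fell by 0.35 on the log2 scale.

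Of 53 further interferon-induced genes 15 were higher (26.8% of all genes), 29 were lower (26.9% of all genes) and 9 did not pass, and their median log2 fold change was -0.19. Of the 4 with the smallest p, 3 were higher and 1 was lower. Tgtp1, an IRG effector, had 8670, 8398, 8512 and 8581 in the Cyp1b1+/+ libraries and 26121, 25008, 25679 and 25757 in the libraries labelled Cyp1b1-/- (log2 fold change 1.59, SE 0.03, adjusted p = 1.57e-10 in limma), and Helz2, a helicase and nuclear receptor coactivator, had 204, 210, 169 and 191 against 1711, 1582, 1810 and 1885 (3.17, SE 0.08, adjusted p = 8.93e-10). Phf11d had 110, 116, 88 and 92 against 928, 840, 807 and 928 (3.10, SE 0.10, adjusted p = 4.97e-09). Lgals9, which encodes galectin-9, had 3284, 3136, 2955 and 3129 against 1007, 947, 945 and 1003 (-1.68, SE 0.04, adjusted p = 8.93e-10). The groups did not overlap in any of these 4 genes. Tgtp2, the gene numbered next to Tgtp1, did not pass (log2 fold change -0.0009). Shared exon sequence was measured only for the members. A split of reads between related genes was therefore not measured for Tgtp1 or the other genes of these lists. The exception is a list gene found to share words with a member, as Oas1g with Oas1a and Ifit3b with Ifit3.

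Families that span the members and these lists were gathered after the values were seen. Of 17 GBP and IRG genes 12 were higher (26.8% of all genes), 1 (Gbp5) was lower (26.9% of all genes) and 4 did not pass. Relative to the chromosome medians 14 were higher and 0 lower (24.6% and 24.5% of all genes). Gbp4 rose the most among the GBP genes, from 23271 ± 419 to 45350 ± 2134 (log2 fold change 0.96, adjusted p = 6.31e-08 in limma). Sequence that Gbp4 shares with other genes was not measured. Of 7 genes of the OAS family 0 were higher (26.8% of all genes), 5 were lower (26.9% of all genes) and 2 did not pass. Oasl1 had 156, 161, 143 and 169 against 15, 15, 16 and 21 (log2 fold change -3.17, SE 0.14, adjusted p = 7.04e-08), and Oas1g had 530, 493, 506 and 568 against 183, 131, 144 and 189 (-1.71, SE 0.11, adjusted p = 1.06e-06). Both were without overlap between the groups. Oas1a, also counted as lower in this family, has 40.9% of its 100-base exon words in Oas1g. The falls of Oas1a and Oas1g may thus not be independent.

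**Figure D3:**
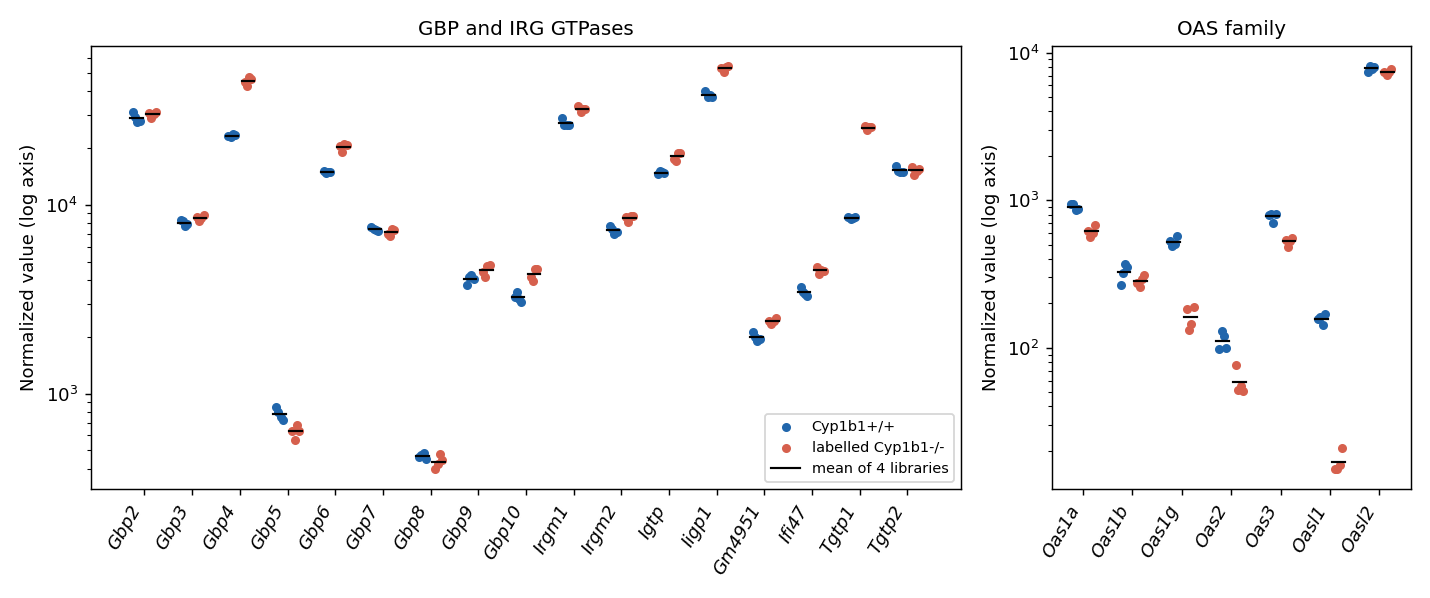
The plots give the normalized values (y axes, log scale) of 17 GBP and IRG genes (left) and 7 OAS genes (right) in each Cyp1b1+/+ library (blue) and each library labelled Cyp1b1-/- (red), with group means as lines. Tgtp1, Gbp4 and Iigp1 stand out as higher in red on the left, while Oasl1 (143 to 169 against 15 to 21) and Oas1g stand out as lower on the right.

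Genes of some chromosomes differed together. In the libraries labelled Cyp1b1-/- the median log2 difference of all genes was 0.47 on chromosome 10, 0.29 on chromosome 19 and 0.19 on chromosome 12, and it was -0.17 on chromosome 16, -0.16 on chromosome 3 and -0.13 on chromosome 7. Of the 657 measured genes of chromosome 10, 485 were higher. The 4 libraries labelled Cyp1b1-/- lay close to each other in this measure, at 0.45 to 0.47 for chromosome 10 and at -0.17 to -0.16 for chromosome 16. With the median shift of its chromosome removed from each value, an alternative chosen after the data were seen, 13 of the interferon-stimulated genes were higher and 27 were lower, against 24.6% and 24.5% of all genes. Epsti1 (-4.92), Trim30a (-2.93), Rsad2 (-1.36), Mx2 (-1.17) and Mx1 (-1.12) stayed past 2-fold on this scale. The part of the chromosome shifts in the other changes was not tested.

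**Figure D4:**
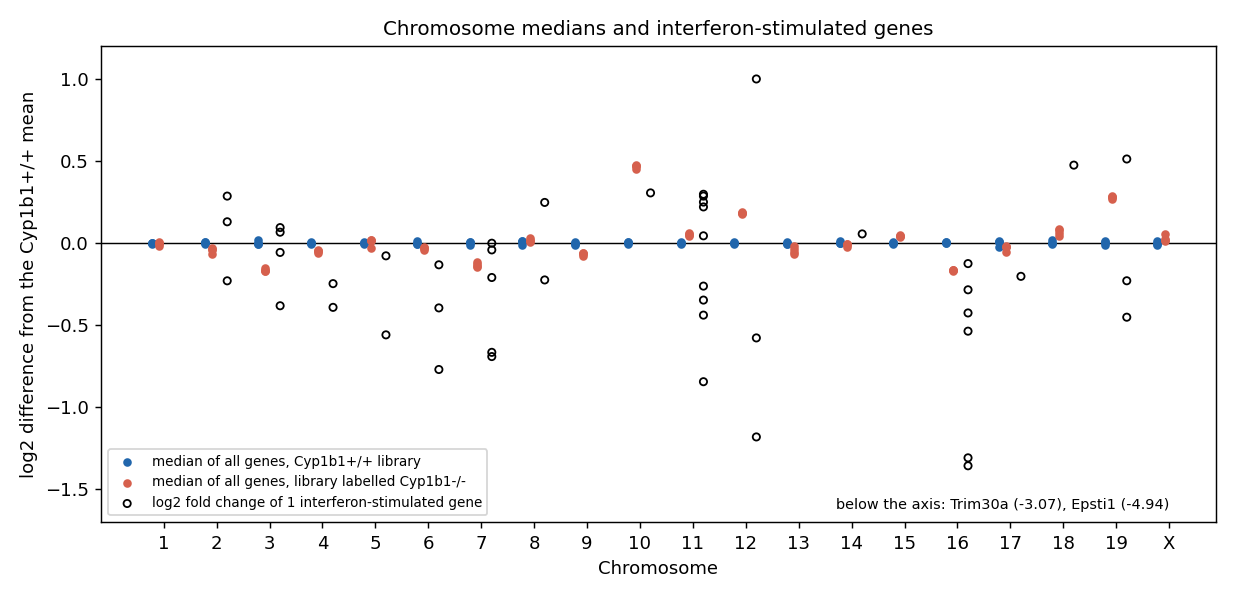
The plot gives, for each chromosome on the x axis, the median log2 difference of all its genes from the Cyp1b1+/+ mean in each Cyp1b1+/+ library (blue) and each library labelled Cyp1b1-/- (red), and the log2 fold change of each interferon-stimulated gene as an open circle, with Trim30a (-3.07) and Epsti1 (-4.94) below the axis. The red points stand near 0.47 on chromosome 10 and near -0.17 on chromosome 16, and the interferon-stimulated genes scatter well beyond the chromosome medians.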

How the data were processed

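RNA of 4 Cyp1b1+/+ and 4 Cyp1b1-/- retinal AC libraries, as labelled, was sequenced by poly(A)-selected, paired-end reads. The authors processed reads with bcl2fastq 2.20, aligned them with STAR 2.5.3a to GRCm38.p6, quantified genes with RSEM, dropped those of low abundance and applied TMM normalization in edgeR 3.28.0. The score of a gene as deposited by the authors is its TMM-normalized count rounded to a whole number. It is no raw count, and the study gives reads only as a mean per genotype, so the depth of a single library, and with it its counting error, is not known. The columns of the authors' own comparison (log2 fold change, p-value, FDR) and a sheet of selected genes were not used.

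Genes were tested with limma 3.58.1 (R 4.3.3, mean-variance trend, two-sided) on log2(value + 1) over 13575 genes and all 8 libraries without covariates, with Benjamini-Hochberg adjustment. On this scale the change of low genes is understated. Python 3.11.15 (pandas 2.3.3, numpy 2.4.6, matplotlib 3.10.9) served for tables and plots, and the test was tested on simulated data. Means and SDs are of normalized values. Coordinates and exon lengths (13553 genes matched) are of GENCODE M21 and promoter sequences of RefSeq, both on GRCm38. Shared sequence was measured, for the members only, as the share of 100-base exon words of a gene found in other genes.

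The members and the lists were chosen with earlier results of these data known. By rule, values of every library were given for members past 2-fold and for the 3 members of each role with the smallest p if called, and up to 4 called genes with the smallest p of each pathway list were named, receptors and kinases with 1 exception. Any gene named outside this rule was picked with its values in view. Alternatives were pseudocounts of 0.5 and 0.1, rescaling by median ratios, equal column totals, a mean of at least 10, no mean-variance trend, a replicate block, leaving out each library, and, added after seeing the data, removal of chromosome medians. The strain entries of the labels count up from library to library, probably through an error of entry. They were not used, and no strain is named here. A gene of the receptors and kinases is not reported here by name.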

Additional observations from a re-analysis of the deposited data

Results flagged for a closer look

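A library stood apart from the other 3 of its group, by a gap above Dixon's 95% critical value for 4 samples, in 9 of the 142 groups tested over 71 genes (6.34%), and chance flags about 1 in 20 groups. Cyp1b1+/+ replicate 1 was low for Stat2 (6813, the others 7821 to 7978) and high for Eif2ak2 (3631, the others 3287 to 3331), Irgm1 (28980, the others 26523 to 26593) and Epsti1 (374, the others 312 to 320). Cyp1b1+/+ replicate 2 was low for Irf1 (4656, the others 4841 to 4866) and for Tlr4 (77, the others 87 to 89). Jak2 was low in Cyp1b1+/+ replicate 4 (1103, the others 1188 to 1203). Of the libraries labelled Cyp1b1-/-, replicate 1 was high for Bst2 (6944, the others 6354 to 6454) and replicate 2 was low for Ifi27 (964, the others 1070 to 1081). Each of these 9 genes passed the test of limma with the library left out.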

How the results depend on the processing

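The counts of interferon-stimulated genes that were higher and lower stayed within 1.5 times the reported counts of 12 and 29 under each alternative run, as did those of all genes. Leaving out each library in turn gave 11 to 12 higher and 28 to 30 lower, and 39 of the 41 calls held in every such fit, the exceptions being Gbp3 and Rtp4. Gbp3 also lost its call with equal column totals, and Stat3 of the pathway lists with rescaling by median ratios, while both lost it without the mean-variance trend and with the replicate block. Isg20, which did not pass, changed sign with rescaling by median ratios (0.0019) and with single libraries left out (-0.0941 to 0.0411). Relative to chromosome medians the sign changed for Stat2 (-0.15), Irf3 (0.10), Gbp7 (0.11), Isg20 (0.14), Rtp4 (0.0589), Ifngr1 (-0.17), Jak2 (-0.0117) and Pias4 (-0.0689). The replicate block gave 11 higher and 29 lower interferon-stimulated genes, and 7105 genes of all in place of 7285, but same-numbered libraries did not deviate together (correlations of -0.0226 to -0.0045), so the numbers do not pair the samples. Leaving out the library labelled Cyp1b1-/- replicate 2 gave 12 higher and 29 lower. Limits set by depth could not be given per library because the values are not counts.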
